A study of Gallus gallus with 71 samples.

Results

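PSAT1 (phosphoserine aminotransferase 1; ENSGALG00010015533) was examined as a single gene, 1 of 30108 genes in the count table, over 18 groups of chick brain libraries. The gene was chosen by measured values of these libraries, because its level at hour 2 of a heat challenge in the nCPa differed between heat-conditioned and control chicks. That contrast is therefore described here without a test, and the tests concern the other groups of libraries. Libraries of the other nuclei at hour 2 came from the same birds per the study, so tests with them are not independent of that choice.

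PSAT1 catalyses the second step of the phosphorylated pathway of serine synthesis. This pathway starts from 3-phosphoglycerate, an intermediate of glycolysis: phosphoglycerate dehydrogenase oxidises it to 3-phosphohydroxypyruvate, PSAT1 transfers an amino group from glutamate to give phosphoserine and 2-oxoglutarate, and phosphoserine phosphatase releases serine. In the mammalian brain the pathway is known mainly from astrocytes, and its serine is used for glycine, one-carbon units, sphingolipids and D-serine, a co-agonist of NMDA receptors.

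The study asked how heat during incubation altered RNA levels in 3 brain nuclei of young broilers before and during an acute heat challenge. All chicks were Hubbard x Cobb-500 broilers kept at 30 °C and studied at 4 days after hatch. Groups of hours 2 and 12 met the challenge at 36 °C, and groups of hour 0 were taken before it. No unchallenged chicks were sampled at hours 2 and 12, so heat and elapsed time cannot be told apart between hours. Embryonic heat conditioning (EHC) held the eggs at 39.5 °C for 12 h per day between embryonic days 7 and 16, with 37.5 °C for the rest of the day, whereas control eggs stayed at 37.5 °C until hatch at day 21. Libraries came from tissue punches of 3 sites: the hippocampal commissure nucleus (nCPa), the preoptic anterior hypothalamic area (POAH) and the paraventricular nucleus (PVN), taken at hour 0 (before the challenge), hour 2 and hour 12.

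There were 71 libraries, with 24 from the nCPa and from the POAH and 23 from the PVN. Every group had 4 libraries, apart from the 3 of EHC chicks in the PVN at hour 12. Each group held chicks of both sexes. A punch contains neurons, glia and vessels together, so fewer cells of a type and less RNA per cell cannot be told apart in these values. Labels do not name the chick, and the study took the 3 nuclei from the same birds, so libraries of different nuclei were not independent of each other.

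Total counts per library ranged from 910033 to 9370799, with a median of 4157783. PSAT1 had 212 to 2461 counts in a library and 70097 in all, which gives a counting error of 6.87% at the lowest and 2.02% at the highest count (counting error only). In 5 libraries of hour 2, the summed level of 68 female-limited genes went against the labelled sex: Sample_67, Sample_68 and Sample_69 were labelled male and read as female, and Sample_70 and Sample_72 were labelled female and read as male. Those read as female are EHC and those read as male are control libraries, with neighbouring library numbers. Whether their treatment labels hold was not tested. EHC against control at hour 2 is given with and without these 5 libraries. Comparisons between hours and interactions with hour 2 hold these libraries and were not fitted with them left out together. In 3 of the 4 control nCPa libraries of hour 12, the 11 named mitochondrial mRNAs took a larger share of counts than in other nCPa libraries of that hour: EHC libraries had 1.18% to 1.86% with a median of 1.43%, and control libraries 0.919% to 6.82% with a median of 5.02%.

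PSAT1 lies on the Z chromosome at 38582875 to 38598178 (RefSeq gene of that symbol, assembly GRCg7b), a protein-coding gene between CEP78 and TLE4. Chicken males carry 2 copies of Z and females 1. The table of counts holds Ensembl IDs, and of the 93 symbols that the paper's tables pair with an ID, PSAT1 was the only member of the serine pathway; PHGDH, PSPH, the one-carbon and ATF4 target lists, the cell type markers of the punches and the neighbours on Z were not analysed here.

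Levels of PSAT1 are given as CPM, counts scaled to library size, with the sizes adjusted by TMM. Over the 71 libraries the level ran between 125.6 and 407 CPM with a median of 226 CPM, a 3.24-fold range. Its biological coefficient of variation in edgeR was 17.6%, below the trend of 24.0% for genes of its abundance, and 26.9% of the 20363 genes tested varied less.

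Of the 18 group means the highest, 369 CPM in control nCPa at hour 2, was 2.35 times the lowest, 156.9 CPM in control POAH at hour 12. EHC nCPa at hour 0 came next with 296 CPM. Control PVN at hour 0 followed with 248 CPM, 47.4 CPM lower. From there the order fell in smaller steps. It ran through the other nCPa groups of hours 0 and 12, then the other PVN groups mixed with the POAH groups of hour 0 and control hour 2. The last were EHC nCPa at hour 2 (202 CPM, the 15th of 18), EHC POAH at hours 2 and 12 (186 and 176.1 CPM) and control POAH at hour 12. The ranges overlapped in all 17 pairs of neighbours in this order, and in 16 of them the means lay closer than the larger SD of the pair, so the order within the middle of the list is not resolved. The coefficient of variation within a group ran from 4.53% in control PVN at hour 12 to 33.8% in EHC nCPa at hour 12.

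**Figure D1:**
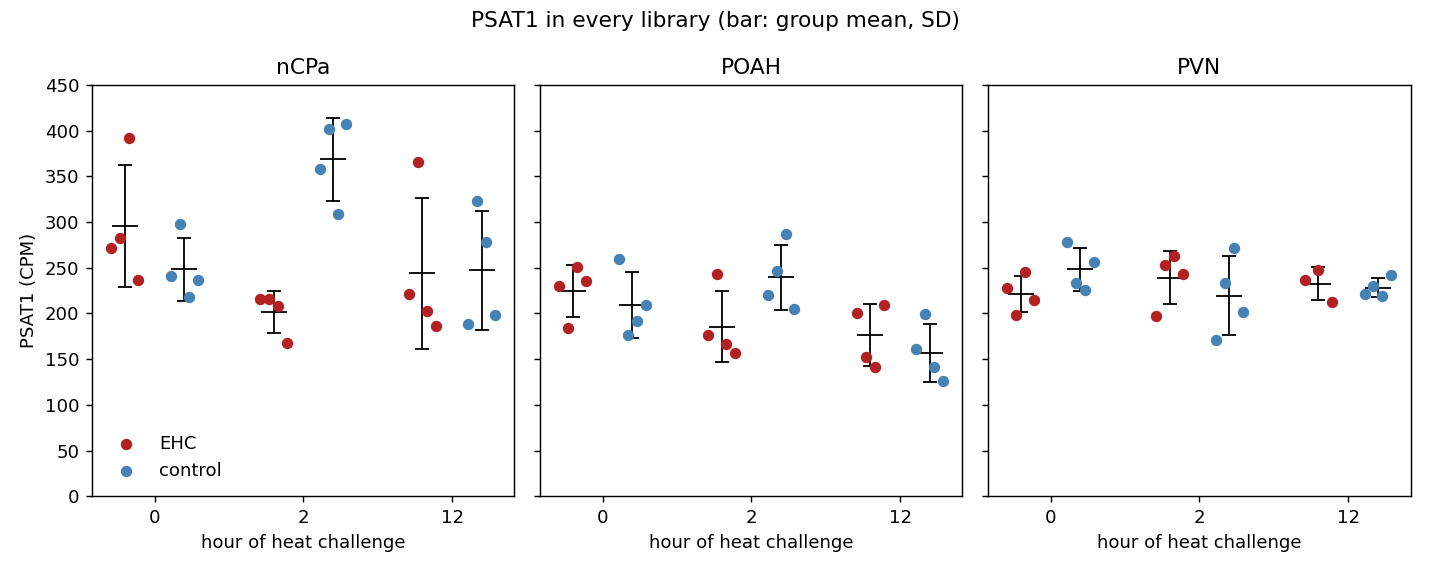
PSAT1 level in CPM (vertical axis) in each library of the nCPa, POAH and PVN at hours 0, 2 and 12 of the heat challenge; points are libraries, EHC (red) left of control (blue), and bars give the group mean and SD. The 4 EHC libraries of the nCPa at hour 2 sit between 167 and 216 CPM and the 4 control libraries between 309 and 407 CPM, and in each other pair the points of EHC and control overlap.

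The nCPa at hour 2 is the contrast on which PSAT1 was selected. EHC libraries had 216, 215, 208 and 167 CPM, against 358, 401, 309 and 407 CPM in control libraries. No EHC library reached the lowest control library, and EHC averaged 202 ± 23.1 CPM and control 369 ± 45.5 CPM (SD, n = 4 each). This is a log2 fold change of -0.87 with a standard error of 0.17, as a description. It lay between -0.95 and -0.79 when any 1 library was left out and at -0.88 without Sample_68, the library of this contrast whose sex label was contradicted. As the groups did not overlap, the direction was bound to hold in these fits, which are a description too. edgeR called 0 genes (0%) of 20363 in this contrast at an adjusted p of at most 0.1, with 1539 at an unadjusted p under 0.05, and DESeq2 called 282.

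Values by labelled sex are a description only, since groups that do not overlap must also differ within each sex. Labelled males had 216 CPM (Sample_68, which read as female) and 215 CPM in EHC, against 358 and 407 CPM in control. Labelled females had 208 and 167 CPM in EHC, against 401 and 309 CPM in control. By female-limited genes, 3 of 4 EHC and 2 of 4 control libraries read as female. Mitochondrial mRNAs took 1.02% to 1.48% of counts in EHC libraries and 0.605% to 1.08% in control libraries of this contrast, and the log2 fold change without those mRNAs was -0.87. Depth overlapped, with totals of 2027294 to 7879120 counts in EHC and 910033 to 5515296 counts in control libraries.

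Against hour 0, the nCPa level of hour 2 lay on opposite sides in the treatments. In EHC chicks, all 4 nCPa libraries of hour 2 were below all 4 of hour 0, which had 272, 282, 392 and 237 CPM. In control chicks, all 4 of hour 2 were above all 4 of hour 0, which had 240, 298, 218 and 236 CPM. On the log2 scale the mean difference of hour 2 minus hour 0 was -0.53 in EHC and 0.57 in control birds. Only 3 of the 67 libraries outside the control nCPa group of hour 2 exceeded the lowest of that group, and the highest of these had 392 CPM. Since the contrast chose the gene, this opposite pattern was not tested, and how many other genes show it was not counted.

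In the nCPa before the challenge, EHC and control values overlapped. At hour 0 the averages were 296 ± 67 CPM for EHC and 248 ± 34.4 CPM for control (SD, n = 4 each), with a log2 fold change of 0.24 (95% interval -0.14 to 0.61, adjusted p = 0.96, edgeR). A single EHC library, Sample_29 at 392 CPM, stood above the rest; leaving it out gave 0.10. At hour 12, EHC libraries had 221, 366, 203 and 186 CPM, against 189, 323, 278 and 198 CPM in control libraries. The means were nearly level, 244 ± 82.5 CPM in EHC and 247 ± 64.7 CPM in control (SD, n = 4 each), and the log2 fold change was -0.05 (95% interval -0.61 to 0.50, adjusted p = 0.97, edgeR). This value rested on single libraries: it was -0.28 without Sample_176, the EHC library at 366 CPM, and 0.12 without the control library Sample_143. edgeR called 0% of genes at hour 0 and 1 gene (0.00491%) at hour 12 in these contrasts. The count at hour 12 depended on the fit, with 390 genes with all nCPa libraries in 1 model and 0.702% of genes without Sample_173.

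In the POAH at hour 2, EHC libraries had 176.1, 243, 167 and 156.7 CPM, against 220, 247, 287 and 205 CPM in control libraries. EHC libraries were higher in 2 of the 16 pairings, and the groups overlapped through 1 EHC library, Sample_91 at 243 CPM. EHC averaged 186 ± 39.2 CPM and control 240 ± 35.7 CPM (SD, n = 4 each). The fit gave a log2 fold change of -0.37 (SE 0.18, 95% interval -0.76 to 0.03, adjusted p = 0.66 from edgeR), and the exact permutation test gave a two-sided p of 0.0857, where 0.0286 is the smallest possible. Sample_67 and Sample_70 are in this contrast, and without them the log2 fold change was -0.14 (adjusted p = 0.995, edgeR). With 1 library left out the value lay between -0.52 (without Sample_91) and -0.23 (without Sample_70). PSAT1 did not pass the test, and 0% of genes were called.

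At the other hours the POAH values of both treatments overlapped. EHC libraries had 230, 184, 251 and 235 CPM at hour 0, against 260.1, 176.5, 192 and 209 CPM in control libraries, and the log2 fold change was 0.10 (95% interval -0.27 to 0.46). At hour 12, EHC libraries had 201, 153, 141.5 and 209.7 CPM, against 161.5, 199, 141 and 125.6 CPM in control libraries, with a log2 fold change of 0.14 (95% interval -0.31 to 0.60). Values of EHC and control were interleaved at both hours. Single libraries moved these estimates: that of hour 0 was 0.02 without Sample_13 and 0.26 without Sample_16, and that of hour 12 was 0.0032 without Sample_172 and 0.34 without Sample_142.

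In the PVN, EHC libraries had 228, 198, 245 and 215 CPM at hour 0, against 278, 233, 226 and 256 CPM in control libraries, a log2 fold change of -0.17 (95% interval -0.44 to 0.11). At hour 2, EHC libraries had 197, 253, 263 and 243 CPM, against 171, 233, 271 and 202 CPM in control libraries, a log2 fold change of 0.14 (95% interval -0.23 to 0.50). Sample_69 and Sample_72 are in this contrast, and without them it was 0.35 (95% interval 0.01 to 0.69, unadjusted p = 0.0452, adjusted p = 0.34, edgeR), an interval above 0 in a fit that called 436 genes. The estimate in the PVN at hour 2 thus had the opposite sign to those of the nCPa and POAH at the same hour, and the difference between nuclei in treatment effect was not tested. At hour 12, EHC averaged 232 ± 18.1 CPM (SD, n = 3) and control 228 ± 10.3 CPM (SD, n = 4), with a log2 fold change of -0.01 (95% interval -0.25 to 0.23). This is the narrowest interval of the 8 contrasts tested. edgeR called 51 genes (0.25%) in the PVN at hour 12 and 0% at hours 0 and 2. The count at hour 12 was 0 with all PVN libraries in 1 model and 11 without Sample_150. With 1 library left out, PSAT1 lay between -0.25 and -0.11 at hour 0, between 0.04 and 0.25 at hour 2 and between -0.05 and 0.08 at hour 12.

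**Figure D2:**
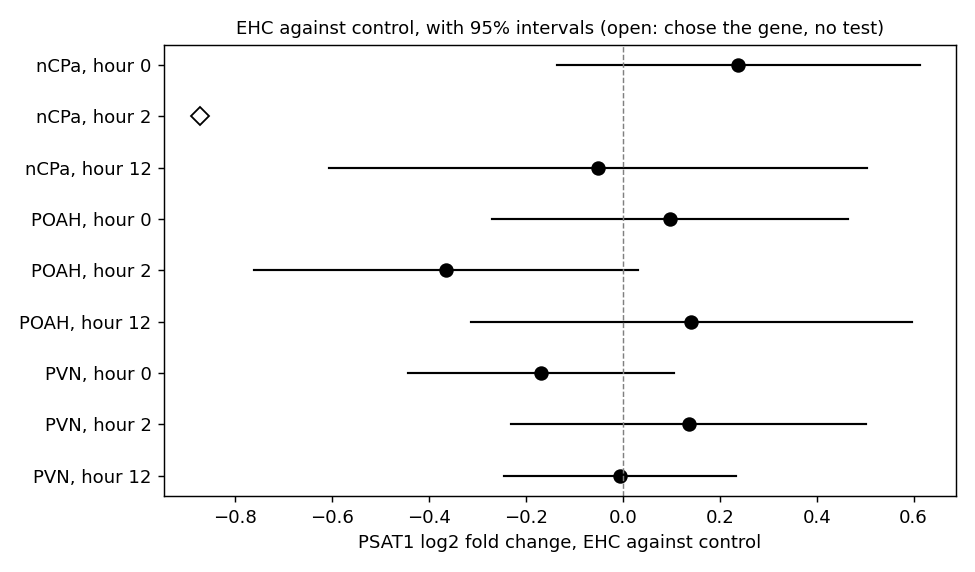
Log2 fold change of PSAT1, EHC against control (horizontal axis), in each nucleus and hour; filled points are estimates with 95% intervals from edgeR, and the open diamond is the contrast that chose the gene, drawn without an interval. All 8 intervals span 0, with estimates between -0.37 and 0.24, and the diamond lies at -0.87.

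Across the 8 contrasts of EHC with control that were tested, PSAT1 passed in 0, with edgeR adjusted p-values between 0.66 and 0.995 and 0 unadjusted p-values under 0.05. DESeq2 also called PSAT1 in 0 of them, while it called 4 to 336 genes in all per contrast and edgeR had 806 to 2065 genes at an unadjusted p under 0.05. Exact permutation p-values for PSAT1 ran from 0.0857 to 0.943, and the smallest after adjustment over the 8 was 0.571.

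Between hours, the lowest unadjusted p of PSAT1 was in the POAH. POAH libraries averaged 217 ± 31.4 CPM at hour 0, 213 ± 45.1 CPM at hour 2 and 167 ± 32.2 CPM at hour 12 (SD, n = 8 each, EHC and control together). Hour 12 against hour 0 gave a log2 fold change of -0.40 (SE 0.13, 95% interval -0.67 to -0.12, unadjusted p = 0.0069 from edgeR). It did not pass the test over all genes (adjusted p = 0.998, edgeR), where 0% of genes were called and 791 had an unadjusted p under 0.05. The estimate stayed between -0.47 and -0.33 when any 1 of the 16 libraries was left out. Mean log2 differences were -0.36 in EHC and -0.42 in control chicks, and the interaction of treatment with hour 12 was 0.04 (95% interval -0.53 to 0.60).

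Hour 12 against hour 2 in the POAH gave -0.35 (95% interval -0.66 to -0.04, adjusted p = 1.0, edgeR), and hour 2 against hour 0 gave -0.05 (95% interval -0.33 to 0.23). In control chicks, all 4 POAH libraries of hour 12 were below all 4 of hour 2, with a mean log2 difference of -0.62. It was -0.07 in EHC chicks, where the hours overlapped. The control gap was narrow, from 199 CPM (highest of hour 12) to 205 CPM (lowest of hour 2). Every other pair of hours within a treatment overlapped in the POAH and PVN, so this separation was picked out of several comparisons. How many of all genes separate in this way was not counted, and edgeR called 0% of genes between these hours. The highest control library of hour 2 was Sample_70 at 287 CPM, whose sex label was contradicted. Whether the change from hour 2 to hour 12 differed between treatments was not tested. The interaction of treatment with hour 2 against hour 0 in the POAH was -0.48 (SE 0.24, 95% interval -0.998 to 0.03, adjusted p = 1.0, edgeR). It was -0.38 without Sample_70 and -0.45 without Sample_67, and it was not fitted without both.

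PVN libraries averaged 235 ± 25 CPM at hour 0, 229 ± 35.5 CPM at hour 2 (SD, n = 8 each) and 230 ± 13 CPM at hour 12 (SD, n = 7). The 3 log2 fold changes between hours lay between -0.04 and 0.01, and that of hour 12 against hour 0 had a 95% interval of -0.20 to 0.12. Interactions of treatment with hour were 0.31 for hour 2 against hour 0 and 0.16 for hour 12 against hour 0, neither past the test (0% and 0.417% of genes called, edgeR). nCPa libraries of hour 12 against hour 0 gave -0.14 (95% interval -0.49 to 0.22, adjusted p = 0.88, edgeR), and -0.31 without the 3 control libraries rich in mitochondrial mRNA. The matching interaction was -0.26 (95% interval -0.98 to 0.45), where edgeR called 9 genes (0.0442%). It was -0.53 without Sample_176 and -0.08 without Sample_29, and 0 to 55 genes were called with 1 library left out. Comparisons of nCPa hour 2 with hours 0 and 12 hold the libraries that chose the gene, and their pooled log2 fold changes, 0.01 for hour 2 against hour 0 and -0.14 for hour 12 against hour 2, are given without a test (0% and 0.0246% of genes called).

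The level of PSAT1 was also compared between nuclei, without hour 2. Over hours 0 and 12, PSAT1 averaged 233 ± 19.7 CPM in the PVN (SD, n = 15), 192 ± 40.4 CPM in the POAH and 259 ± 61.8 CPM in the nCPa (SD, n = 16 each). POAH libraries spanned 125.6, 196 and 260.1 CPM (lowest, median and highest), against 186, 239 and 392 CPM in the nCPa, so the ranges overlapped. PSAT1 was lower in the POAH than in the nCPa, with a log2 fold change of -0.44 (SE 0.09, 95% interval -0.63 to -0.25, adjusted p = 0.0128, edgeR). In the comparisons as reported, without a block, PSAT1 passed in this one and in none of the other 25 tested. Under other settings, PVN against POAH also passed with a block for the inferred chick and with all hours. For POAH against nCPa, edgeR called 1037 genes (5.09%), and DESeq2 called PSAT1 as well, at -0.45 (adjusted p = 0.0013).

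The 3 control nCPa libraries of hour 12 rich in mitochondrial mRNA are in this comparison. Without them the log2 fold change of POAH against nCPa was -0.39 (adjusted p = 0.0784, edgeR), and 179 genes were called in all. At hour 12 the 8 POAH libraries lay between 125.6 and 209.7 CPM and the 8 nCPa libraries between 186 and 366 CPM. At hour 0 the ranges were 176.5 to 260.1 CPM in the POAH and 218 to 392 CPM in the nCPa.

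PVN against POAH gave a log2 fold change of 0.28 (SE 0.10, 95% interval 0.09 to 0.47, unadjusted p = 0.0051, adjusted p = 0.149, edgeR), which did not pass the test (453 genes called, 2.22%). With the inferred chick as a block, described next, it was 0.27 and passed (adjusted p = 0.0898, edgeR), as it did with all hours (0.24, adjusted p = 0.0779, edgeR), a fit that holds the libraries that chose the gene. PVN against nCPa gave -0.16 (95% interval -0.36 to 0.03, adjusted p = 0.31, edgeR), with 2548 genes called (12.5%). PVN libraries also varied least, between 198 and 278 CPM over these hours.

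Library numbers mostly run in sets of 3, and these sets were read as chicks, an inference that the labels do not state. It gave 25 sets, 9 of them at hour 0, which is more than the chicks that the study sequenced. Sample_60, a control male PVN library of hour 0, stood alone, and the control male set of Sample_16 and Sample_17 at that hour lacked a PVN library. The inference is also in doubt in 1 control set of hour 2, since Sample_71 read as female by its female-limited genes and Sample_70 and Sample_72 as male. Over hours 0 and 12, the POAH library was lower than the nCPa library of its set in 15 of 16 sets, and the PVN library was lower than the POAH library in 2 of 14 and lower than the nCPa library in 9 of 14. With the set as a block, POAH against nCPa was -0.43 (adjusted p = 0.0040, edgeR). At hour 2 the counts differed between treatments, which was not tested: the PVN library was lower than the nCPa library in 1 of 4 EHC sets and in 4 of 4 control sets, a count that holds the libraries that chose the gene. Likewise the PVN library was lower than the POAH library in 0 of 4 EHC sets and in 4 of 4 control sets at hour 2. PVN and POAH lay as close as 202 and 205 CPM in a control set and 253 and 243 CPM in an EHC set. The EHC set of Sample_67 to Sample_69 and the control set of Sample_70 to Sample_72 hold the libraries that went against their sex label. By this inference the birds are those of the contrast that chose the gene, and other genes were not counted.

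**Figure D3:**
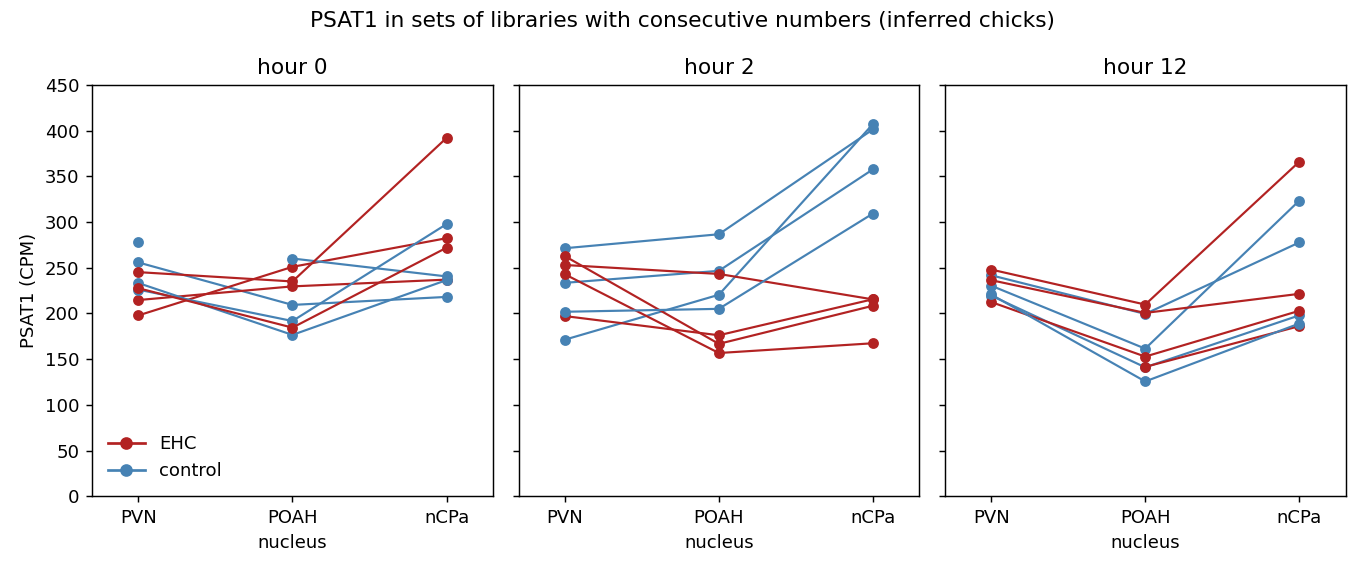
PSAT1 level in CPM (vertical axis) in the PVN, POAH and nCPa at each hour, with lines joining libraries of 1 inferred set of consecutive library numbers; EHC in red, control in blue. At hour 12 the POAH point is the lowest of its set in every full set, and at hour 2 the 4 control lines climb to 309 to 407 CPM in the nCPa while the EHC lines end between 167 and 216 CPM.

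PSAT1 is Z-linked, so its level was compared between the sexes at hours 0 and 12, where no label was contradicted. The female-limited genes were picked by the labels of these hours, so that agreement is partly built in. In the nCPa, females averaged 257 ± 69.6 CPM and males 261 ± 57.8 CPM (SD, n = 8 each), which is -0.05 on the log2 scale (95% interval -0.41 to 0.31). In the POAH, females averaged 190 ± 42 CPM and males 194 ± 41.5 CPM (SD, n = 8 each), which is -0.03 on the log2 scale (95% interval -0.32 to 0.25). In the PVN, females averaged 228 ± 20.3 CPM (SD, n = 7) and males 236 ± 19.8 CPM (SD, n = 8), a log2 fold change of -0.04 (95% interval -0.21 to 0.12).

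A level in proportion to 1 Z copy against 2 would give a log2 fold change of -1.0, which lies outside all 3 intervals. The bounds nearest to it were -0.41, -0.32 and -0.21, and smaller differences lie within the intervals. The 3 nuclei came from the same birds, and no other Z gene was compared. Adjusted p-values for PSAT1 from edgeR were 0.90 (nCPa), 0.94 (POAH) and 0.82 (PVN). In the same comparisons 453 genes (2.22%), 513 genes (2.52%) and 1554 genes (7.63%) were called, of which 305, 319 and 907 were lower in females.

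**Figure D4:**
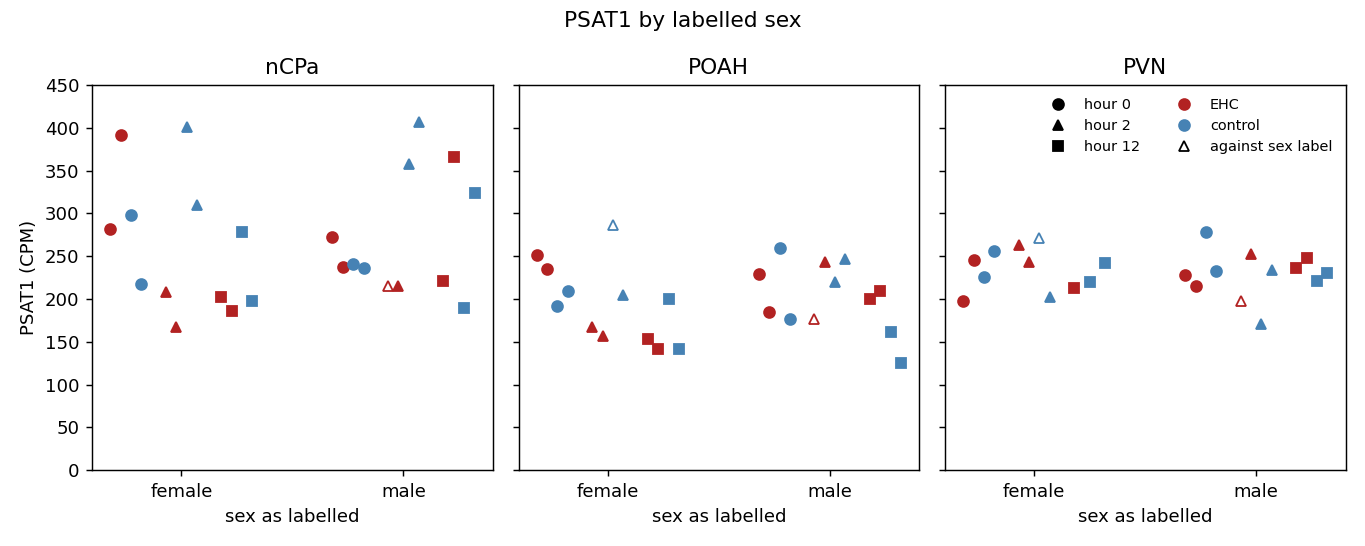
PSAT1 level in CPM (vertical axis) in libraries labelled female and male of each nucleus; shape gives the hour, red is EHC, blue is control, and open symbols are the 5 libraries whose female-limited genes went against the label. Female and male points overlap in every nucleus, with means at hours 0 and 12 of 257 and 261 CPM (nCPa), 190 and 194 CPM (POAH), and 228 and 236 CPM (PVN).

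The genes whose log2 CPM followed PSAT1 most closely over all 71 libraries were ENSGALG00010006104 (Pearson r = 0.74) and ENSGALG00010023884 (r = 0.72). On deviations from the 18 group means the closest was ENSGALG00010007196 (r = 0.71). These correlations are descriptions: the libraries share chicks, depth and tissue composition, and none of the 10 closest genes has a symbol among the 93 paired ones.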

How the data were processed

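Punches of 3 brain nuclei gave 71 stranded, ribosomal RNA-depleted libraries. Per the submitters' notes and the study's methods, reads were trimmed with Trimmomatic 0.39, aligned to the chicken genome with HISAT2, filtered with SAMtools 1.10 to unique pairs, freed of duplicates and counted per Ensembl gene. The deposited values are whole-number counts by the authors, not normalized; no column was left out. The strand setting of the counting is not given in the sources used here.

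Genes above 1 CPM in at least 4 of 71 libraries were kept, 20363 of 30108. The quasi-likelihood test of edgeR 4.0.16 (R 4.3.3; TMM) was fitted to the libraries that a comparison concerns, with labelled sex as a covariate where it was not compared, and genes were called at an adjusted p of at most 0.1 (Benjamini-Hochberg, over all genes). Treatment was a covariate between hours, and treatment by hour between nuclei and sexes. For PSAT1, two-sided exact permutation tests used log2 CPM (prior count 2). Alternatives were DESeq2 1.42.0, its size factors, no filter, no sex term, 1 model per nucleus, other sets of libraries and leaving out each library. A library read as against its sex label from genes with at least 2 CPM in females and at most 1 part in 20 of that in males. The gene, the lists and the comparisons were chosen with earlier results of these data known. Genes given values besides PSAT1 are those with the highest correlation with it. Replicates are birds per the study. It incubated EHC and control eggs in separate incubators and caged the chicks by treatment. Effects of incubator or cage therefore cannot be told apart from treatment in these values. Each p-value sets a difference against the spread between libraries. Between nuclei the main fit had no block for the bird, so libraries of the same bird entered as if independent. Scripts were tested on simulated data. Plots used matplotlib 3.10.9 in Python 3.11.15.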

Additional observations from a re-analysis of the deposited data

Results flagged for a closer look

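Among the 17 groups of 4 libraries, 1 held a library far from the other 3 by Dixon's criterion, which flags about 1 in 20 groups by chance: EHC nCPa at hour 2, where Sample_80 had 167 CPM and the others 208 to 216 CPM. Sample_80 lies farther from the control libraries than the other 3 do. The log2 fold change of that contrast was -0.95 to -0.79 over all libraries left out in turn, a description of the contrast that chose the gene.

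In the nCPa, every EHC library of hour 2 was below every EHC library of hour 0 (mean log2 difference -0.534), and every control library of hour 2 was above every control library of hour 0 (mean log2 difference 0.572). The difference between the treatments was not tested, since it contains the contrast that chose PSAT1. How many other genes show this pattern was not counted.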

How the results depend on the processing

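PSAT1 values were recomputed 372 times under other settings, and 355 kept their direction and their side of the threshold, or, for values without a test, moved by less than 1 SD. PSAT1 was not called in 25 of the 26 tested comparisons, so keeping both mostly meant an unchanged sign. The count does not measure how far values moved. Without the libraries against their sex label, EHC against control at hour 2 went from -0.37 to -0.14 in the POAH and from 0.14 to 0.35 in the PVN, both counted as kept. EHC against control in the PVN at hour 12 turned from -0.01 to 0.00055 without the filter on low counts and to 0.0023 without the sex term. Hour 12 against hour 2 in the PVN turned to -0.00046 with DESeq2, and female against male in the PVN to 0.042 with all hours, where -0.03 remained without the libraries that went against their label. PVN against POAH passed the threshold with all hours (0.24, adjusted p = 0.078, edgeR) and with the inferred chick as a block (0.27, adjusted p = 0.090, edgeR). With 1 library left out, EHC against control ran from -0.28 to 0.12 in the nCPa at hour 12 and from -0.052 to 0.083 in the PVN at hour 12, and the interaction of treatment with hour 12 against hour 0 in the POAH from -0.086 to 0.19. The cause was not tested, and all of these lie within their 95% intervals. Settings without mitochondrial mRNAs, without the libraries rich in them and without libraries outside a full set were chosen after seeing the data.

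Counts of genes called also moved over the settings: POAH against nCPa had 179 to 1506, PVN against nCPa 1216 to 4104 and PVN against POAH 365 to 1684, against 1037, 2548 and 453 in the comparisons reported. EHC against control had 0 to 763 with edgeR, and its highest counts were mostly those without the filter on low counts. Hour 12 against hour 0 in the nCPa had 90 with all its libraries in 1 model, and treatment by hour in the PVN, hour 12 against hour 0, had 0 in that model and 201 without Sample_42, against 85. Female against male had 373 to 687 (nCPa), 511 to 1646 (POAH) and 899 to 2020 (PVN). EHC and control chicks were different birds, so EHC against control was not paired. Nuclei were paired only through the inferred sets. With 4 libraries a group, the 95% intervals of EHC against control in the tested contrasts reached as far as -0.76 (POAH, hour 2) and 0.61 (nCPa, hour 0), and differences within these intervals are not excluded.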

Other observations

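Deviations of PSAT1 from its group means were compared between nuclei of the same inferred set at hours 0 and 12 (3 relations computed, hour 2 left out). POAH and nCPa gave Pearson r = 0.53 over 16 sets (permutation p = 0.037, adjusted 0.11) and Spearman rho = 0.68 (permutation p = 0.0049), with r = 0.45 without the 2 sets farthest from the nCPa median. PVN and nCPa gave r = 0.49 over 14 sets (permutation p = 0.076, adjusted 0.11) and rho = 0.35 (permutation p = 0.21), with r = 0.14 without the 2 farthest sets. PVN and POAH gave r = 0.44 over 14 sets (permutation p = 0.11, adjusted 0.11) and rho = 0.44 (permutation p = 0.11), with r = 0.36 without the 2 farthest. Only the p-values of r were adjusted, and r then passed 0.05 in 0 of the 3 relations. Those of rho were not adjusted. The permutations shuffled values over all sets, not within treatment and hour. As the deviations were centred within groups of unequal spread, all of these p-values are only approximate. A set shares its bird and possibly its handling, and their parts in these values were not tested.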
